A study of Mus musculus with 46 samples.

Results

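The genes described here encode the proteins of the cytosolic ribosome, followed through the response of cultured mouse ovarian follicles to an ovulatory signal. Members were chosen by name, as the genes of the count table whose symbols are those of the small (Rps) and large (Rpl) subunit proteins together with Rplp0, Rplp1, Rplp2 and Rpsa, without S6 kinase genes and pseudogenes. Of 25147 genes in the table, 83 matched and 81 were kept, 32 of the small and 49 of the large subunit. The 2 genes left out had no count in the 6 batch 2 libraries taken after the signal. One was Rpl3l, with 0 counts in every library, and the other was Rpl39l, with 3 counts over the 0 h libraries and 1 count over the batch 1 libraries at 4 h.

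The ribosome is assembled in the nucleolus from ribosomal RNA and one copy of most of its proteins, and is then exported to the cytoplasm. The small subunit reads the messenger RNA and the large subunit joins the amino acids. Messages for these proteins commonly start with a run of pyrimidines, the terminal oligopyrimidine tract, through which their translation follows nutrient and growth factor signals by way of mTOR and LARP1. A few members have paralogs, such as Rpl22l1 beside Rpl22 and Rps27l beside Rps27, whose proteins can take the same place in the ribosome. Luteinizing hormone, or hCG acting on the same receptor, turns granulosa cells from proliferation towards luteinization and leads to release of the oocyte.

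Single follicles of CD-1 mice, an outbred stock, were grown for 8 days in alginate. They were then moved to a maturation medium containing 1.5 IU/ml hCG, 10 ng/ml EGF and 10 mIU/ml rFSH, so that every sample after 0 h had all 3 agents. The 0 h group had 9 follicles, all of batch 2, and 5 of these carry a "_ds" suffix whose meaning is not given. The 1 h and the 4 h group each had 10 follicles of batch 1 and 3 of batch 2. The 8 h group had 11, all of batch 1. The libraries of batch 1 at 1 h and 8 h are labelled plate 1 and those at 4 h plate 2. Follicles are not tied to mice in the labels and may share animals, and each p-value therefore reflects differences among follicles. The libraries were made from polyadenylated RNA, and fewer cells of a type cannot be told apart from less RNA per cell.

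The total count per library was between 241442 and 5185044. Marker levels were summed in CPM (a gene's counts scaled to a fixed library total) without genes at 0 in the batch 2 libraries after hCG, which drops the granulosa marker Amh and 1 surface epithelium marker. The other 7 granulosa markers summed to 79801 to 114750 at 0 h, 49593 to 90455 at 1 h in batch 1 and 18198 to 36478 at 8 h, and the ranges at these 3 times overlapped only between 0 h and 1 h. The 9 oocyte markers, including Gdf9 and Zp3, summed to between 3.37 and 145 in every library. Smooth muscle markers (6) had a median of 173 at 0 h, 1135 and 1085 at 1 h in batches 1 and 2, 670 and 1036 at 4 h, and 262 at 8 h. Theca and stroma markers (10) had a median of 912 at 0 h, 1371 and 1360 at 1 h in batches 1 and 2, 226 and 799.5 at 4 h, and 259 at 8 h, and 6 of the 9 tested were called lower at 4 h and at 8 h than at 1 h. Single libraries ranged from 50.5 to 2911 for this list. Endothelial markers (5) ranged from 1.40 to 127, leukocyte markers (5) from 0 to 273 and the other 4 surface epithelium markers from 0 to 69.5. The part of cell makeup in the results below was not tested. A set of 9423 genes had 0 counts in all 6 batch 2 libraries after hCG, and 3332 of them were counted in batch 1. These genes held 33.6% ± 6.67 (SD, n = 9) of the counts at 0 h and at most 0.0667% in any later library, which bears on every comparison with 0 h.

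The starts of 9 of the members described below, with genes lower after 1 h listed before those higher, show the sequence context of these messages. Each stretch runs from 35 bases before to 25 bases after the annotated start (RefSeq, GRCm38.p6), 5′ to 3′ on the strand of the gene. Capitals mark the pyrimidine strings CTTTC or CTTCC and also CCTTT on the strand of the gene, the ETS core CCGGAAG on either strand and the string TATAAA on the strand of the gene. Overlapping matches run together.
Rpl22l1: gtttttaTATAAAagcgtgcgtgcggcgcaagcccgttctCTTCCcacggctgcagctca
Rpl10: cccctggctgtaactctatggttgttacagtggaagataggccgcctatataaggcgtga
Rpl26: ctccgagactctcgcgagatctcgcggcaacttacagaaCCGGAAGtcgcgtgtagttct
Rps27: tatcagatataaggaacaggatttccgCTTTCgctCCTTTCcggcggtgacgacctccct
Rpl35: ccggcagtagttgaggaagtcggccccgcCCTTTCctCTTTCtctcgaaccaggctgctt
Rps2: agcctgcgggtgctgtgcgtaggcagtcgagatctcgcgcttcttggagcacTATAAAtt
Rpl7a: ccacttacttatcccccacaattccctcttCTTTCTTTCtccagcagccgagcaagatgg
Rpl18: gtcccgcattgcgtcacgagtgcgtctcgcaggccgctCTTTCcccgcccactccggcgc
Rpl7l1: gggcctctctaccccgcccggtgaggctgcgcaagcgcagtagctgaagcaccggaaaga

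These stretches lie at chr3:28805473-28805532 (Rpl22l1, plus strand), chrX:74270781-74270840 (Rpl10, plus), chr11:68901531-68901590 (Rpl26, plus), chr3:90213624-90213683 (Rps27, minus) and chr2:39005107-39005166 (Rpl35, minus). The rising genes lie at chr17:24720028-24720087 (Rps2, plus), chr2:26910772-26910831 (Rpl7a, plus), chr7:45718036-45718095 (Rpl18, plus) and chr17:46782632-46782691 (Rpl7l1, minus). A promoter window was found for 61 of the 81 members. Within 20 bases of the start, on the strand of the gene, CTTTC was present in 18 of 61 members (29.5%) and in 6.44% of 27025 genes. On the same scale CTTCC was present in 26.2% of members and 10.3% of genes, and CCTTT, which overlaps CTTTC, in 19.7% and 5.40%. CCGGAAG, the core read by ETS factors such as GABP, was present on either strand of the 300-base window in 25 of 61 members (41.0%) and 9.93% of genes. TATAAA between 40 and 20 bases before the start was found in 1 member, Rpl22l1, which is 1.64% of members beside 2.25% of genes. In the 9 stretches, CTTTC appears in the falling Rps27 and Rpl35 and also in the rising Rpl7a and Rpl18. These matches are descriptions of the letters and not of binding.

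In the deposited TPM values, which scale a transcript's reads by its length and the library's depth, the median member had a mean of 1054 over the 46 libraries, 42 members were above 1000, and 5 were below 100. Among the members at the upper end were Rplp0, at a mean TPM of 3469, and Rps4x, at 3409. Rps4x was above Rplp0 at 0 h and 1 h and below it at 4 h and 8 h, with overlapping ranges in every group. The lowest were Rpl10l, a testis paralog of Rpl10, at 0.2 TPM, Rpl7l1, a nucleolar relative of Rpl7, at 33.8, and Rpl12, a protein of the stalk base, at 35.8. Rpl10l had 9 counts in all and was not tested, which leaves 80 members in the tests below. Only the fits with no filter on low counts held all 81.

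The members together held 3.81% ± 0.65 (SD, n = 9) of all counts at 0 h. At 1 h they held 6.27% ± 0.99 (n = 10) in batch 1 and 5.53% ± 0.81 (n = 3) in batch 2. At 4 h the share was 5.09% ± 0.66 (n = 10) in batch 1 and 6.02% ± 0.85 (n = 3) in batch 2, and at 8 h it was 5.71% ± 0.58 (n = 11). All 9 libraries at 0 h, at 2.83 to 4.78%, overlapped the later groups only at their upper end. With the genes at 0 in batch 2 after hCG taken out of the total, the share at 0 h was 5.72% ± 0.68 and lay inside the range of the later groups, which hardly moved. The low share at 0 h depended on which genes were in the total. The fall from 1 h to 4 h in batch 1 and the opposite order in batch 2 were present with either total.

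**Figure D1:**
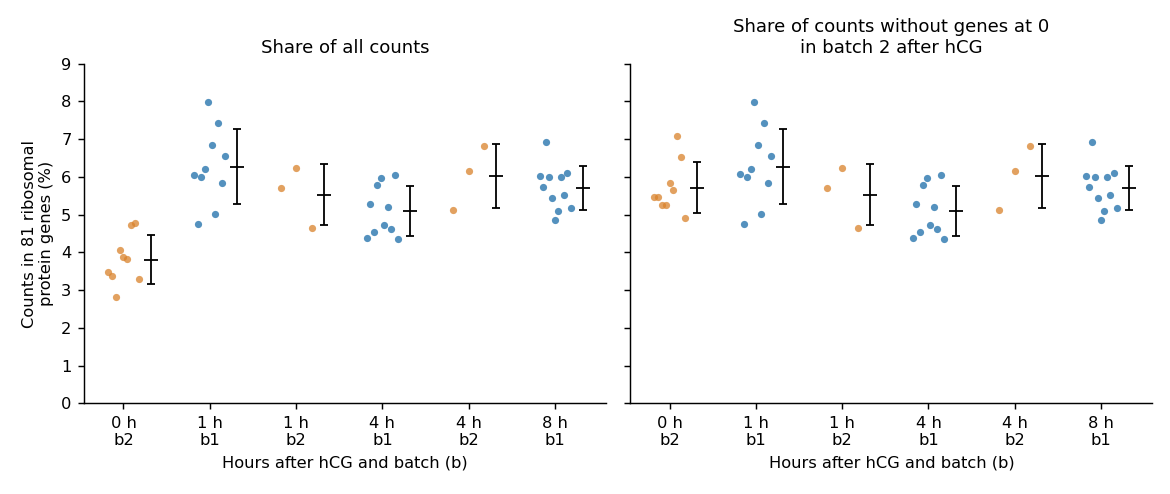
Percent of counts in the 81 ribosomal protein genes in each follicle (points; blue batch 1, orange batch 2), with the mean and SD of each group in black. The 0 h follicles sit at 3.81% on average with all genes in the total and at 5.72% without the genes at 0 in batch 2 after hCG.

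The comparison of 8 h with 1 h is the one made within a single plate of batch 1, and here most members were lower at the later time. In the fit of all 46 libraries, 46 of 80 members fell and 7 rose from 1 h to 8 h, where 25.9% of 8629 genes fell and 23.2% rose (edgeR quasi-likelihood test, Benjamini-Hochberg adjusted p under 0.05, here "called"). The median log2 fold change of the members was -0.33, beside -0.02 for all genes. The fall was shared by the subunits, with 17 of 32 small and 29 of 48 large subunit members called lower. In batch 1 alone 46 fell and 10 rose, beside 25.1% and 29.0% of genes. In batch 1, 20 members had every 8 h follicle below every 1 h follicle, where 7.38% of genes had such a gap, and 2 members, Rpl18 and Rpl7a, had every 8 h follicle above every 1 h follicle, beside 6.33% of genes. The split of calls depended on scaling. With library totals in place of TMM factors, 22 members fell and 14 rose (19.0% and 31.8% of genes), and the median of all genes was 0.20. On deposited TPM (limma on log2(TPM + 1)), 14 fell and 15 rose (13.0% and 30.4% of genes), with a median of -0.06 for members and 0.22 for all genes. Relative to the median gene, the members stood at -0.32 with TMM, -0.32 with library totals and -0.28 on TPM. With no filter on low counts, over 19925 genes, 22 fell and 11 rose (11.0% and 14.1% of genes).

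**Figure D2:**
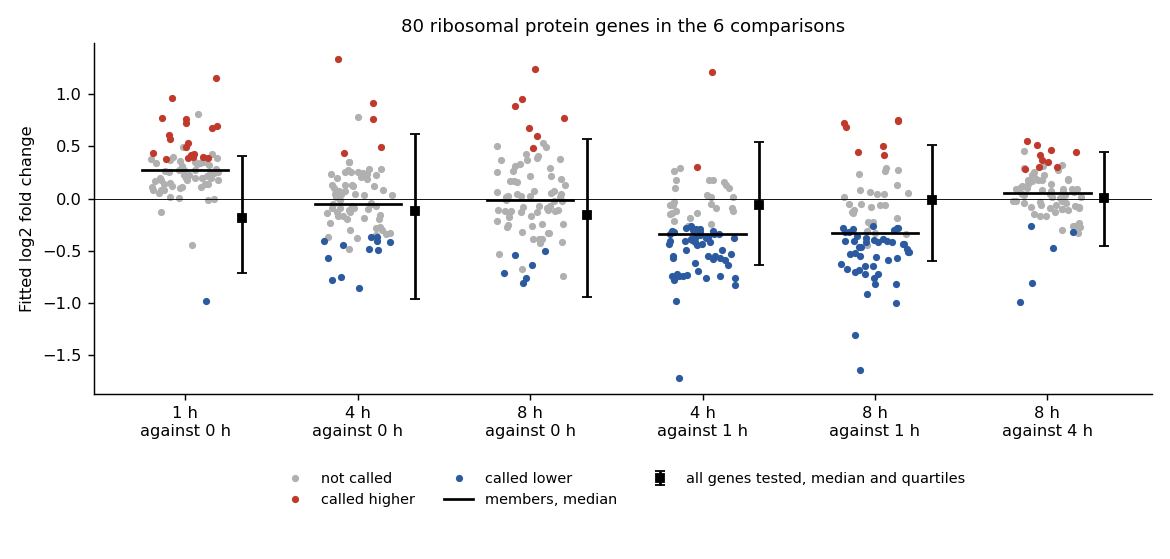
Fitted log2 fold changes of the 80 tested members in each comparison, coloured by call, with the members' median as a line and the median and quartiles of all genes tested as a square with bars. In the comparisons of 4 h and 8 h with 1 h the members' medians lie at -0.34 and -0.33, below those of all genes at -0.06 and -0.02.

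Rpl22l1, the paralog of Rpl22 and a large subunit protein at chr3:28805436-28807424, had the largest fall. In batch 1 its lowest, median and highest values were 124, 169 and 275 CPM at 1 h, 28.0, 43.8 and 115 at 4 h, and 34.2, 59.0 and 69.3 at 8 h. No follicle at 4 h or 8 h reached the lowest follicle at 1 h. The fitted change was -1.72 ± 0.21 (log2 ± SE, adjusted p = 1.3e-09) from 1 h to 4 h and -1.64 ± 0.22 (adjusted p = 1.2e-08) from 1 h to 8 h. In batch 2 it read 153, 78.5 and 80.4 CPM in the 3 follicles at 1 h and 47.2, 78.5 and 69.0 at 4 h, where the groups were apart by under 0.01 CPM. In TPM the batch 2 values were 385, 217 and 215 at 1 h and 113, 228 and 199 at 4 h, which overlapped.

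Rpl10, an X-linked protein of the large subunit near the site where the peptide bond forms (chrX:74270812-74273135), was next. Its values in batch 1 were 1359, 2377 and 2845 CPM (lowest, median, highest) at 1 h, 527, 968 and 1236 at 4 h and 592, 824 and 1019 at 8 h, without overlap. The change from 1 h to 8 h was -1.31 ± 0.15 (adjusted p = 2e-10). Batch 2 did not show it at 4 h: the follicles read 1156, 1314 and 1616 CPM at 1 h and 1318, 1073 and 1320 at 4 h.

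Rps27, a small subunit protein with a zinc finger (chr3:90212522-90213651), was lower at 4 h and 8 h. Batch 1 had 616, 650 and 1016 CPM at 1 h, 273, 381 and 451 at 4 h and 301, 361 and 447 at 8 h, and the change from 1 h to 8 h was -0.92 ± 0.12 (adjusted p = 5.1e-09). Batch 2 had 636, 601 and 517 CPM at 1 h and 337, 285 and 527 at 4 h, where 1 follicle at 4 h overlapped the 1 h values.

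Of the 8 proteins that line or rim the exit tunnel for the new peptide, among them Rpl4, Rpl19, Rpl23a, Rpl26, Rpl31, Rpl35 and Rpl39, 6 were called lower at 8 h than at 1 h and none higher, beside 46 of all 80 members and 25.9% of genes. At 4 h against 1 h 7 were called lower, beside 51 of 80 members and 28.9% of genes, in a step where batch 1 changes plate with time and batch 2 alone had 1 member called lower. Rpl39, a small tunnel protein (chrX:37082520-37085402), was at 595, 677 and 855 CPM at 1 h in batch 1 and at 341, 404 and 484 at 8 h, a change of -0.76 ± 0.13 (adjusted p = 2e-06). In batch 2 it was at 773, 490 and 590 CPM at 1 h and at 362, 423 and 384 at 4 h, so that both batches had no overlap. Rpl35, at the rim, was at 127, 147 and 229 CPM at 1 h in batch 1 and at 80.1, 94.6 and 115 at 8 h, a change of -0.70 ± 0.12 (adjusted p = 4.9e-06).

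Rpl26, also at the rim, was called lower at 8 h than at 1 h (0.50 of the 1 h level, adjusted p = 0.0019), but its follicles fell into separate ranges within each time of batch 1. At 1 h, 3 follicles lay between 415 and 509 CPM and 7 between 1395 and 2161. At 4 h, 4 lay between 296 and 449 and 6 between 742 and 1093, and at 8 h, 6 lay between 304 and 378 and 5 between 766 and 1059. In batch 2 the follicles did not keep to these ranges: they read 1104, 1194 and 566 CPM at 1 h, all between the ranges of batch 1, and 744, 657 and 934 at 4 h, of which 657 lay between them. The 9 follicles at 0 h were spread from 720 to 1195. What the ranges follow was not tested.

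**Figure D3:**
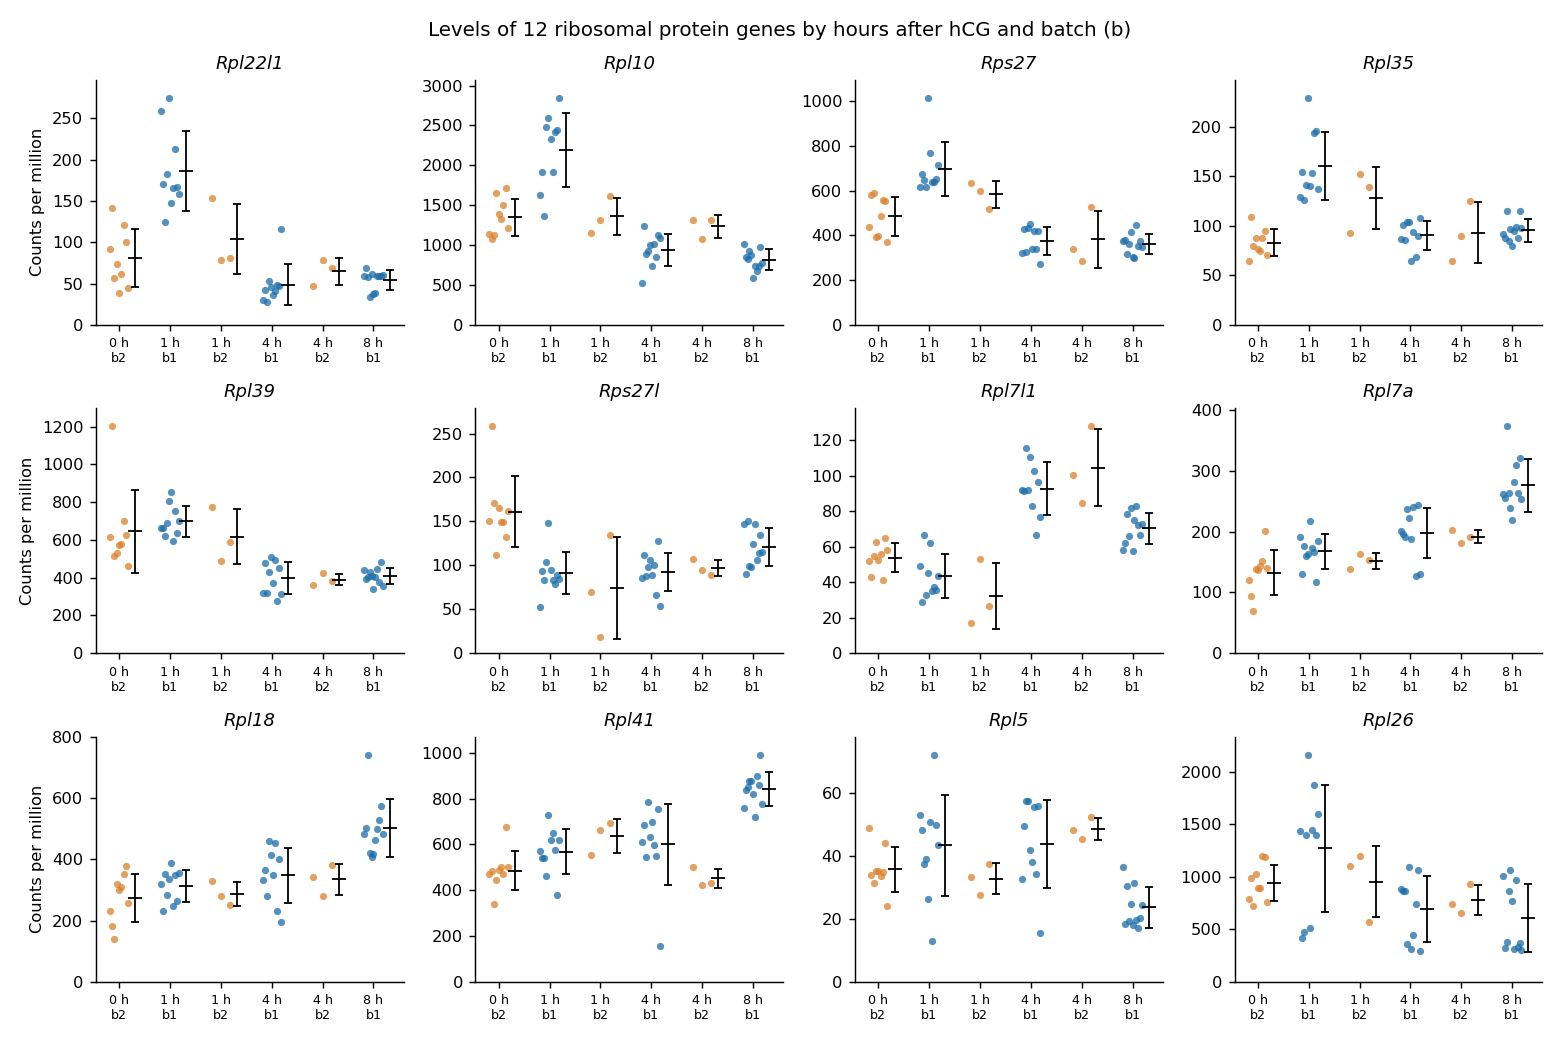
TMM-scaled CPM of 12 members in every follicle (points; blue batch 1, orange batch 2), with mean and SD in black and each vertical axis starting at 0. Rpl22l1, Rpl10, Rps27, Rpl35 and Rpl39 are lower at 8 h than at 1 h, Rpl7a, Rpl18 and Rpl41 are higher, and Rpl26 splits into separate ranges in batch 1, with batch 2 follicles in the gaps at 1 h and 4 h.

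The 7 members that rose from 1 h to 8 h were Rps2, Rpl7l1, Rpl7a, Rpl18, Rpl41, Rps27l and Rpl28. Rpl7a, a large subunit protein whose gene hosts small nucleolar RNAs in its introns (chr2:26910764-26913318), was at 118, 170 and 218 CPM (lowest, median, highest) at 1 h in batch 1, 126, 198 and 243 at 4 h, and 218, 263 and 373 at 8 h. The change from 1 h to 8 h was 0.73 ± 0.13 (adjusted p = 8.6e-06). Every follicle at 8 h was above every follicle at 1 h, by a narrow margin. Rpl18 (chr7:45715457-45720836) rose by 0.69 ± 0.14 (adjusted p = 7.8e-05) from values of 232 to 389 CPM at 1 h to values of 407 to 743 at 8 h. Rpl41, which encodes the smallest protein of the ribosome, had 381 to 729 CPM at 1 h in batch 1 and 720 to 991 at 8 h, a change of 0.50 ± 0.15 (adjusted p = 0.0041). Rps2, a small subunit protein at the entry of the messenger RNA channel, rose by 0.75 ± 0.27 (adjusted p = 0.017), with overlapping values of 30.8 to 74.8 CPM at 1 h and 49.4 to 171 at 8 h.

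From 1 h to 4 h, 51 of 80 members fell and 2 rose, beside 28.9% and 26% of all genes, with a median of -0.34. Batch 1 has 10 follicles at each time, but there the times sit on different plates, and the plate and the time cannot be told apart. In batch 1 alone 54 fell and 2 rose (26.9% and 30.0% of genes), and in batch 2 alone 1 fell and 1 rose (5.88% and 6.15% of genes). When plate 1, plate 2 and batch 2 were each given a term of their own, so that only batch 2 informs this step, 4 fell and 3 rose (10.7% and 13.1% of genes). On deposited TPM 25 fell and 4 rose (16.2% and 27.6% of genes), and with no filter on low counts 24 fell and 3 rose (11.3% and 14.7%). In batch 1, 11 members had all 4 h follicles below all 1 h follicles and 1 had them above, beside 5.98% and 6.68% of genes. In batch 2, with 3 follicles against 3, the counts were 10 below and 14 above, beside 14.0% and 17.3%.

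The difference of this step between the batches was tested in the 26 follicles at 1 h and 4 h. It was called for 3 of 80 members, Rpl10, Rpl14 and Rpl4, beside 5.09% of 5820 genes. The fitted step was below 0 for 69 members in batch 1 (median -0.40) and for 46 in batch 2 (median -0.07), and for 71 of 80 the step in batch 2 was the higher one. Over all genes tested the median steps were 0.01 and 0.05. The step was below 0 for 2895 of 5820 genes in batch 1 and for 2751 in batch 2, and the batch 2 step was the higher one for 52.5%. Rpl14, a large subunit protein, was at 477 to 731 CPM at 1 h and 311 to 577 at 4 h in batch 1, and at 474, 370 and 236 CPM at 1 h and 514, 626 and 543 at 4 h in batch 2. Its step was -0.50 ± 0.13 in batch 1 and 0.65 ± 0.23 in batch 2, a difference of 1.14 ± 0.27 (adjusted p = 0.012). Rpl4, which reaches into the exit tunnel, had steps of -0.26 ± 0.10 and 0.52 ± 0.19, a difference of 0.77 ± 0.22 (adjusted p = 0.033). Across the 80 members the steps of the batches had a Pearson correlation of 0.65, and across all genes 0.70, and these points share their libraries and depth.

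**Figure D4:**
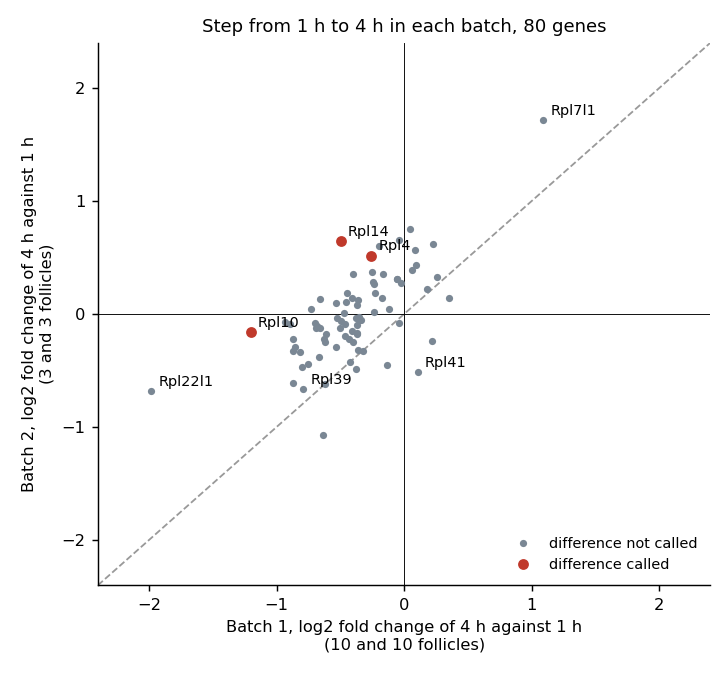
Fitted log2 fold change from 1 h to 4 h in batch 1 (horizontal) and batch 2 (vertical) for the 80 tested members, with the members whose difference was called in red and equality as a dashed line. Of the 80 points 71 lie above the dashed line, where 52.5% of 5820 genes tested had the higher step in batch 2. Rpl7l1 is the highest point in both batches, and Rpl22l1 is the lowest in batch 1.

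Rpl7l1 was higher at 4 h than at 1 h in each batch. It was at 28.8, 40.4 and 66.4 CPM (lowest, median, highest) at 1 h in batch 1 and at 66.6, 91.8 and 116 at 4 h. In batch 2 the follicles read 17.3, 53.1 and 26.8 CPM at 1 h and 101, 84.9 and 128 at 4 h, so neither batch overlapped. The change was 1.21 ± 0.14 (adjusted p = 2.3e-10), the largest rise of any member in this comparison, and from 4 h to 8 h it fell by 0.47 ± 0.14 (adjusted p = 0.0055). The other member called higher at 4 h was Rpl27, whose rise of 0.30 ± 0.13 had an adjusted p of 0.047.

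From 4 h to 8 h few members moved: 10 rose and 5 fell, beside 19.8% and 21.6% of genes, and the median was 0.05. In batch 1 alone, again across plates, 13 rose and 5 fell (23.8% and 24.8% of genes). With separate terms for plate 1, plate 2 and batch 2, 1 rose and 10 fell (6.35% and 10.4% of genes), so the direction of this step turned with the treatment of plates. In the fit with a batch term the rises were led by Rpl41 (0.55 ± 0.14, adjusted p = 0.0018), Rpl18 (0.51 ± 0.14, adjusted p = 0.0031) and Rpl7a (0.46 ± 0.13, adjusted p = 0.0035). Rpl5, which carries 5S ribosomal RNA into the ribosome and, when free, restrains Mdm2, had the largest fall. It was at 15.4, 45.7 and 57.6 CPM at 4 h in batch 1 and at 17.0, 20.4 and 36.5 at 8 h, and the change was -0.99 ± 0.18 (adjusted p = 1.2e-05). Its partner Rpl11 was at 208 to 492 CPM at 4 h in batch 1 and at 373 to 524 at 8 h, a change of 0.27 ± 0.12 that was not called (adjusted p = 0.058). Rpl12 fell by 0.80 ± 0.22 (adjusted p = 0.0025), from 19.3 to 56.0 CPM at 4 h to 9.20 to 37.1 at 8 h.

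Against 0 h the members' median change at 1 h was above 0 under each scaling run, at 0.05 to 0.72. At 4 h and 8 h its sign depended on scaling and on which libraries were fitted. With TMM the 4 h median was -0.05 over all libraries, 0.15 in batch 2 alone and 0.19 without the "_ds" libraries. At 1 h with TMM, 19 members were called higher and 1 lower, beside 12.4% and 22.2% of genes, and 75 of 80 fitted changes were above 0, with a median of 0.27 beside -0.19 for all genes. At 4 h, 5 were higher and 12 lower, beside 21.9% and 32.2%. At 8 h, 7 were higher and 6 lower, beside 17.5% and 27.6%. On deposited TPM, where the genes at 0 in batch 2 after hCG take part of the fixed total, limma called 70 higher at 1 h (16.2% of genes), 55 at 4 h (28.5%) and 56 at 8 h (28.5%). With library totals and those genes removed, the counts were 10 higher and 2 lower at 1 h (8.26% and 31.2% of genes) and 4 higher and 19 lower at 4 h (18.3% and 35%). The median of the members less that of all genes was 0.46 at 1 h with TMM, 0.48 with library totals, 0.50 with library totals without those genes and 0.73 on TPM, so at 1 h the members stood above the median gene under each of these scalings. At 4 h the same difference was 0.07, 0.08, 0.11 and 0.40.

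The comparison of 1 h with 0 h has its 0 h follicles in batch 2 alone. In the fit of all libraries it also uses the batch 1 follicles at 1 h. It reaches them through a batch term set by the follicles at 1 h and 4 h. With no batch term 50 members were called higher and 2 lower at 1 h (20.8% and 27.2% of genes). In batch 2 alone 2 members rose and none fell from 0 h to 1 h (7.47% and 10.7% of genes), although 7 rose and none fell from 0 h to 4 h (13.7% and 19.7% of genes). Leaving out 1 of the 6 batch 2 follicles after hCG moved the count called higher at 1 h from 12 (without 4 h replicate 13, 12.2% of genes) to 28 (without 1 h replicate 11, 11.6%), and leaving out the 5 "_ds" follicles raised it to 36 (8.45%). At 4 h against 0 h the counts were 13 higher and 3 lower without 1 h replicate 11 (23.6% and 27.9% of genes) and 12 and 2 without 1 h replicate 12 (24.8% and 29.0%). They were 7 and 6 without 1 h replicate 13 (21.6% and 31.2%) and 6 and 3 without 4 h replicate 11 (22.8% and 27.3%). Without 4 h replicate 12 they were 5 and 12 (20.8% and 31.4%), and without 4 h replicate 13 they were 4 and 14 (21.0% and 30.8%). At 8 h against 0 h they were 17 and 2 without 1 h replicate 11 (19.5% and 22.3% of genes), 17 and 2 without 4 h replicate 11 (20.2% and 23.2%), and 15 and 2 without 1 h replicate 12 (21.3% and 23.3%). With 1 h replicate 13 left out they were 9 and 6 (17.3% and 26.4%). Without 4 h replicate 12 they were 7 and 7 (16.9% and 27.3%), and without 4 h replicate 13 they were 5 and 9 (17.0% and 27.1%). The balance of rises and falls thus depended on which follicle was left out. All 0 h follicles are of batch 2 and all 8 h follicles of batch 1, so the comparison of 8 h with 0 h rests on a batch term set by the follicles at 1 h and 4 h. Without that term 22 members were called higher and 13 lower at 8 h (30.1% and 33.3% of genes). A fit with the replicate number as a block called 0 members higher at 1 h (1.94% of genes). Its median change at 1 h was 0.38, and 78 of 80 changes were above 0. Replicate numbers did not pair the follicles, and only those numbered 11 set the batch term in this fit. The 0 calls therefore do not show that the rise is absent.

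**Figure D5:**
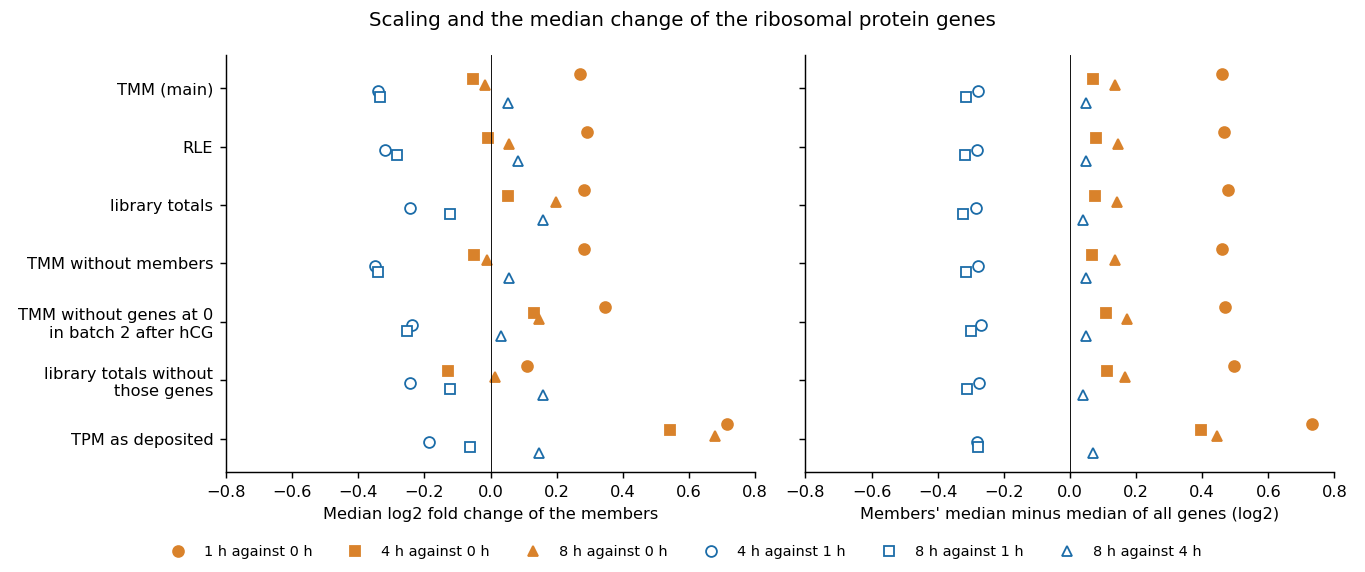
Median log2 fold change of the members under 7 scalings (left) and the same after subtracting the median of all genes tested (right), for the 6 comparisons. The comparisons with 0 h (filled) move with the scaling, up to 0.72 on TPM as deposited, while those with 1 h (open circles and squares) stay below 0 on both sides.

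Rpl12 had the largest rise from 0 h to 1 h (1.16 ± 0.31, adjusted p = 0.0029) and to 4 h (1.34 ± 0.28, adjusted p = 8e-05). It was at 5.89, 14.2 and 26.9 CPM (lowest, median, highest) at 0 h, at 13.4 to 34.6 in the batch 2 follicles at 1 h and at 52.3, 40.9 and 44.9 at 4 h, where every follicle was above 0 h. Rps27l was the member that fell at 1 h (-0.98 ± 0.24, adjusted p = 0.0012), from 112, 150 and 258 CPM at 0 h to 69.3, 18.5 and 134 in batch 2 and a median of 86.5 in batch 1. Rps2 at 8 h had a change of 1.24 ± 0.40 against 0 h (adjusted p = 0.0097), and Rpl10 and Rpl39 were lower at 8 h than at 0 h, with changes of -0.81 ± 0.23 (adjusted p = 0.003) and -0.76 ± 0.19 (adjusted p = 0.0013). These 8 h changes rest on the batch term. For Rpl10 the steps from 1 h to 4 h that set this term differed, at -1.20 in batch 1 and -0.16 in batch 2. That difference was called (1.04 ± 0.30, edgeR, adjusted p = 0.04), so its change from 0 h to 8 h is uncertain. In the authors' deposited table of fold changes against 0 h, the 1 h values were above 0 for 78 of 81 members, those at 4 h for 41 and those at 8 h for 45. Of 19925 genes in that table, 52.1%, 46.9% and 47.9% were above 0 at these times, so the 4 h count is near the share of all genes. The authors' deposited table gave signed fold changes of 2.18 for Rpl12 and -1.94 for Rps27l at 1 h.

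The acidic stalk proteins draw elongation factors to the ribosome. Rplp1 rose by 0.72 ± 0.18 at 1 h against 0 h (adjusted p = 0.0013), fell by 0.49 ± 0.12 from 1 h to 4 h (adjusted p = 0.00059) and rose by 0.37 ± 0.13 from 4 h to 8 h (adjusted p = 0.022). In batch 2 its follicles overlapped at 537, 656 and 584 CPM at 1 h and 589, 626 and 752 at 4 h, and in the fit of batch 2 alone the step was 0.18. Its rise from 4 h to 8 h turned to -0.36 with separate terms for the plates. Rplp2 had the same calls in these 3 comparisons, with changes of 0.39, -0.53 and 0.44. Rplp0, the anchor of the stalk, was called in none of the 6 comparisons, and its largest change was 0.49 ± 0.21 at 8 h against 0 h (adjusted p = 0.051). In the fit of batch 1 alone, Rplp0 was called higher at 8 h than at 1 h (0.31 ± 0.10, adjusted p = 0.0094). Rps6, the substrate of S6 kinase, and Rpsa, also known as the laminin receptor, were also called in none of the 6. For Rps6 the change from 1 h to 8 h was -0.05 ± 0.13 (adjusted p = 0.76), with 873 to 1520 CPM at 1 h in batch 1 and 695 to 1234 at 8 h. Over all times together 62 of 80 members were called, beside 79.8% of all genes.

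The balance between paralogs was read from TPM, since it compares genes of different length. Rpl22l1 made up 43.1% ± 7.18 (SD, n = 9) of the Rpl22 and Rpl22l1 TPM at 0 h, 59.3% ± 7.79 and 50.4% ± 10.2 at 1 h in batches 1 and 2, 37.1% ± 11.3 and 42.9% ± 5.67 at 4 h and 38.0% ± 4.93 at 8 h. Rpl22 itself fell from 1 h to 8 h by 0.46 ± 0.12 (adjusted p = 0.0019). Rps27l made up 19.2% ± 3.55 of its pair with Rps27 at 0 h, 8.43% ± 1.25 and 8.29% ± 6.77 at 1 h, 14.8% ± 1.73 and 16.1% ± 4.69 at 4 h and 19.4% ± 4.17 at 8 h. In batch 1 the highest value at 1 h (10.6%) was below the lowest at 4 h (12.3%) and at 8 h (14.4%). Rpl7l1 made up 1.81% ± 0.47 of its pair with Rpl7 at 0 h, 0.99% ± 0.29 and 1.00% ± 0.49 at 1 h, 2.88% ± 0.43 and 2.75% ± 0.30 at 4 h and 2.02% ± 0.25 at 8 h. In both batches the mean shares of Rps27l and Rpl7l1 were lowest at 1 h and that of Rpl22l1 was highest then. Batch 1 had no follicle at 0 h, and batch 2 had none at 8 h. The batch 2 shares of Rps27l overlapped, at 2.14 to 15.5% at 1 h and 10.7 to 19.2% at 4 h. Those of Rpl22l1 also overlapped, at 40.5 to 60.8% and 38.5 to 49.3%. Those of Rpl7l1 did not, at 0.48 to 1.46% and 2.51 to 3.09%. Rpl36al, a paralog of Rpl36a whose name the rule does not take, made up 50.1% ± 4.06 of their TPM at 0 h and 64.9% ± 3.03 at 8 h.

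Several members have near copies in the genome that can take part of their reads, and how such reads were counted is not given in the sources used here. Rpl27-ps3 held on average between 78.4% and 88.9% of the counts of Rpl27 and Rpl27-ps3 in each group, and it was not called in any of the 6 comparisons. Rpl27 itself was called higher at 1 h than at 0 h (0.61 ± 0.19, adjusted p = 0.0096). Rps12-ps3 held between 52.1% and 61.4% of the counts of Rps12 and itself, and from 6.67% to 92.9% in single follicles. Levels of Rpl27 and Rps12 are therefore uncertain. No such share was computed for Rps2, Rpl5 and Rpl12, which also had low levels. The part of near copies in their levels and changes was not tested. The retrocopy Rps27rt fell from 1 h to 8 h by 1.19 ± 0.15 (adjusted p = 2.4e-09), in the same direction as Rps27.

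Within groups of follicles the members varied together. After removing the mean of each time and batch, the median Pearson correlation of log2 CPM between 2 members was 0.51 over the 46 libraries, beside 0.10 between 2 of 992 other genes at or above the level of the 10th percentile of members. That set is not matched to the members' abundance, and the values share library and depth. Rps2 (median correlation with other members 0.04), Rps27l (0.09), Rps12 (0.18), Rpl22l1 (0.20), Rpl7l1 (0.20) and Rpl26 (0.20) were the members that followed the rest least. The within-group SD of log2 CPM had a median of 0.26 for members and 0.36 for those other genes. It was lowest for Rpl19 (0.19) and highest for Rps12 (0.78), Rpl26 (0.70) and Rps2 (0.65), so the most variable members were also among those that varied apart from the others.

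Transcripts of the members were between 271 and 3706 bases long. Across the 80 members, the fold change from 1 h to 4 h had a Pearson correlation of 0.38 and a Spearman correlation of 0.46 with length, and shorter members had a median of -0.44 beside -0.27 for longer ones. For 8 h against 1 h the correlations were 0.13 and 0.17. These are descriptions across genes, which are not independent replicates. The deposited values do not hold the fragment lengths of the libraries, and the part of length in the change was not tested.

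Other genes of translation were read from lists. Of 16 elongation and initiation factors and other messages with oligopyrimidine starts, 6 rose and 2 fell from 1 h to 4 h, beside 26% and 28.9% of all genes. From 1 h to 8 h 4 rose and 4 fell, near the shares of all genes (23.2% and 25.9%). Npm1, a nucleolar chaperone of ribosome assembly, rose by 1.16 ± 0.10 from 1 h to 4 h (adjusted p = 3.2e-13) and fell by 0.95 ± 0.11 from 4 h to 8 h (adjusted p = 2e-09), with means of 1078 and 949 CPM at 1 h in batches 1 and 2 and 2343 in each batch at 4 h. Its fall to 8 h lies across plates, and batch 2 has no follicle at 8 h. Eif4a2, an initiation helicase, fell by 1.15 ± 0.12 from 1 h to 8 h (adjusted p = 2.8e-11), and Eif3e, a subunit of initiation factor 3, fell by 1.14 ± 0.17 (adjusted p = 1.9e-07). Of ribosomal protein genes whose names the rule does not take, Gnb2l1 (Rack1) rose by 0.44 ± 0.13 from 1 h to 8 h (adjusted p = 0.0028), while Fau (0.06 ± 0.15) was not called.

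A further list held chaperones and assembly factors of ribosomal proteins, not all of them dedicated to a single protein. Of its 9 tested genes, 6 rose and none fell from 1 h to 4 h, where 26% of all genes rose and 28.9% fell. From 4 h to 8 h 4 fell and none rose, beside 21.6% and 19.8%. In batch 1 the 4 h follicles are on a plate of their own, so plate and time cannot be told apart in either step. Batch 2 has follicles at 1 h and 4 h but none at 8 h. Grwd1, the chaperone of Rpl3, rose by 2.77 ± 0.22 from 1 h to 4 h (adjusted p = 7.9e-15) and fell by 2.25 ± 0.20 from 4 h to 8 h (adjusted p = 1e-12). Its mean was 7.84 ± 5.09 CPM (SD, n = 10) at 1 h in batch 1 and 62.2 ± 17.6 (n = 10) at 4 h, and 11.0 ± 0.50 (n = 3) and 48.4 ± 11.5 (n = 3) in batch 2. Rrs1, which helps to place the 5S particle, rose by 1.83 ± 0.28 from 1 h to 4 h (adjusted p = 3.7e-07). Over the same step Rpl3 had a change of -0.06 ± 0.12 (adjusted p = 0.70) and Rpl11 of -0.22 ± 0.11 (adjusted p = 0.091), so the messages of these client proteins were not called.

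Of 13 tested regulators of ribosomal protein translation and supply, 4 rose and 2 fell from 1 h to 4 h (26% and 28.9% of all genes), and 2 rose and 2 fell from 1 h to 8 h (23.2% and 25.9%), so these counts do not set the list apart. Myc, a transcription factor that drives ribosome biogenesis, was 3.35 ± 0.39 higher on the log2 scale at 1 h than at 0 h (adjusted p = 1.6e-09) and 3.83 ± 0.32 lower at 8 h than at 1 h (adjusted p = 2.4e-14). Its means were 22.7 ± 20.1 CPM at 0 h, 278 ± 87.1 and 171 ± 90.2 at 1 h in batches 1 and 2, 155 ± 68.9 and 194 ± 62.8 at 4 h and 17.8 ± 7.39 at 8 h. Eif4ebp1, a repressor of cap-dependent translation under mTOR, rose by 1.72 ± 0.14 from 1 h to 4 h (adjusted p = 1.5e-14). Rheb, the activator of mTOR, fell by 1.78 ± 0.14 from 1 h to 8 h (adjusted p = 1.9e-15). Larp1, which binds oligopyrimidine starts, rose by 0.80 ± 0.27 from 1 h to 4 h (adjusted p = 0.012) at low levels of 5.56 and 8.61 CPM in batch 1.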

How the data were processed

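Single-follicle libraries were made with Smart-Seq2 from polyadenylated RNA, per the labels' protocols, a method that does not keep the strand. Per the submitters' processing notes, HISAT2, GRCm38, Partek and DESeq2 were used, without versions, and how reads with several matches were counted is not given in the sources used here. Counts were adjusted for batch by the authors (ComBat-seq, judging by the name of the deposited table) and are whole numbers for 25147 genes. The deposited TPM table, made by the authors from the adjusted counts, holds 25122 genes. The deposited table of signed fold changes against 0 h has no samples and was used for description. In the count table and in the TPM table, 10 columns each belong to no sample described here and were left aside.

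Counts were fitted with edgeR 4.0.16 (R 4.3.3) by the quasi-likelihood F test with TMM factors, filterByExpr on the time groups and terms for time and batch over 46 libraries. P-values were adjusted by Benjamini-Hochberg over 8629 genes and called under 0.05. Standard errors were taken as the absolute log2 fold change over the root of the F statistic. CPM are TMM-scaled, and log2 CPM had a prior count of 2. The code was tested on simulated data. Totals of 241442 to 5185044 limit precision at low levels.

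Alternatives were RLE factors, library totals, TMM without the members, no filter, no batch term, a term for each of plate 1, plate 2 and batch 2, a replicate block, each batch alone, no "_ds" libraries, leaving out each batch 2 library after hCG, libraries thinned to the smallest total, DESeq2 1.42.0 and limma 3.58.1 on log2(TPM + 1) or log2(TPM + 0.1) for genes with a mean TPM of at least 1. The genes at 0 in batch 2 after hCG were also left out. Named members were up to 3 called rises and 3 falls per comparison, the 3 highest and 3 lowest in TPM, paralog pairs, stalk genes, Rpl5, Rpl11, Rpsa and Rps6. Rpl14 and Rpl4 were named for their batch difference and Rpl19, Rps12 and Rpl28 after their values were seen. From the lists, up to 2 called rises and falls per comparison and Myc, Larp1, Gnb2l1 and Fau were eligible. Some values that the rule would name are not reported here. Members and lists were chosen with earlier results of these data known.

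Gene positions and transcript lengths are from GENCODE M21 (GRCm38), and sequences are from RefSeq (GRCm38.p6).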

Additional observations from a re-analysis of the deposited data

Results flagged for a closer look

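Groups of 4 to 10 follicles were examined for named members and for the members' share of counts with either total. Of these 87 groups, 9 had 1 follicle farther from the others than Dixon's limit at the 95% level, all for named members. Chance gives about 1 in 20 (5%). At 0 h, replicate 2 was the high follicle for 3 genes, with 155 CPM of Rpl22 (next 109), 1201 of Rpl39 (next 700) and 258 of Rps27l (next 171), and replicate 8 had 675 CPM of Rpl41 (next 502). At 1 h in batch 1, replicate 5 was the high follicle for Rps27 at 1016 CPM (next 769), for Rps27l at 148.2 (next 104) and for Rps6 at 1520 (next 1218). At 4 h in batch 1, replicate 10 had the highest Rpl22l1, 115 CPM beside 53.5 in the next follicle, and the lowest Rpl41, 154 CPM beside 546. That library had the smallest total of all, 241442 counts, and 1 h replicate 5 had the largest member share of counts, 7.98%. The cause of these values was not tested.

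The step from 1 h to 4 h differed between the batches for 3 of 80 members, beside 5.09% of 5820 genes. In batch 2 it was higher than in batch 1 by 1.04 ± 0.30 on the log2 scale for Rpl10 (edgeR, adjusted p = 0.04), by 1.14 ± 0.27 for Rpl14 (adjusted p = 0.012) and by 0.77 ± 0.22 for Rpl4 (adjusted p = 0.033). In batch 1 the times sit on different plates, so a difference of batch and a difference of plate cannot be told apart.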

How the results depend on the processing

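Counts of called members moved by over 1.5 times under the settings below, and the cause was not tested. The share of all genes called moved with the settings as well. Most counts in this section are given without that share and do not set the members apart from other genes. Without the genes at 0 in batch 2 after hCG, the calls were 29 higher at 1 h against 0 h, 18 at 4 h against 0 h, 18 at 8 h against 0 h and 11 at 8 h against 1 h, with 2 lower at 4 h against 0 h and 3 at 8 h against 0 h. With no filter on low counts, the calls were 11 higher at 1 h against 0 h, 10 at 4 h against 0 h, 11 at 8 h against 0 h, 11 at 8 h against 1 h and 4 at 8 h against 4 h, with 2 lower at 4 h against 0 h, 2 at 8 h against 0 h, 24 at 4 h against 1 h, 22 at 8 h against 1 h and 3 at 8 h against 4 h, and 0 members for the batch difference. With no batch term, the calls were 50 higher at 1 h against 0 h, 18 at 4 h against 0 h and 22 at 8 h against 0 h, with 2 lower at 1 h against 0 h and 13 at 8 h against 0 h, and 24 other translation genes at 8 h against 0 h. In that setting 20.8%, 30.1% and 30.1% of all genes were called higher at 1 h, 4 h and 8 h against 0 h. With terms for plate 1, plate 2 and batch 2, the calls were 3 higher at 1 h against 0 h, 9 at 4 h against 0 h and 1 at 8 h against 4 h, with 3 lower at 1 h against 0 h, 3 at 4 h against 0 h, 15 at 8 h against 0 h, 4 at 4 h against 1 h and 10 at 8 h against 4 h, and 13 other translation genes at 4 h against 1 h and 7 at 8 h against 4 h. In batch 2 alone, the calls were 2 higher at 1 h against 0 h and 1 at 4 h against 1 h, with 0 lower at 1 h against 0 h, 0 at 4 h against 0 h and 1 at 4 h against 1 h, and 4 other translation genes at 1 h against 0 h and 5 at 4 h against 1 h. Without the "_ds" libraries, the calls were 36 higher at 1 h against 0 h, 21 at 4 h against 0 h, 18 at 8 h against 0 h and 11 at 8 h against 1 h, with 5 lower at 4 h against 0 h and 2 at 8 h against 0 h. With DESeq2, the calls were 29 higher at 1 h against 0 h, 10 at 4 h against 0 h, 16 at 8 h against 0 h and 11 at 8 h against 1 h. With limma on log2(TPM + 1), the calls were 70 higher at 1 h against 0 h, 55 at 4 h against 0 h, 56 at 8 h against 0 h, 4 at 4 h against 1 h and 15 at 8 h against 1 h, with 0 lower at 4 h against 0 h, 0 at 8 h against 0 h, 25 at 4 h against 1 h, 14 at 8 h against 1 h and 2 at 8 h against 4 h, and 20 other translation genes at 1 h against 0 h and 25 at 8 h against 1 h. With limma on log2(TPM + 0.1), the calls were 70 higher at 1 h against 0 h, 54 at 4 h against 0 h, 56 at 8 h against 0 h, 4 at 4 h against 1 h and 14 at 8 h against 1 h, with 0 lower at 4 h against 0 h, 0 at 8 h against 0 h, 23 at 4 h against 1 h, 14 at 8 h against 1 h and 2 at 8 h against 4 h, and 21 other translation genes at 1 h against 0 h. With TPM rescaled without the genes at 0, the calls were 5 higher at 1 h against 0 h, 11 at 8 h against 0 h, 5 at 4 h against 1 h and 16 at 8 h against 1 h, with 2 lower at 1 h against 0 h, 27 at 4 h against 1 h, 14 at 8 h against 1 h and 2 at 8 h against 4 h, and 26 other translation genes at 8 h against 1 h. In batch 2 alone without the genes at 0, the calls were 2 higher at 1 h against 0 h, 9 at 4 h against 0 h and 1 at 4 h against 1 h, with 0 lower at 4 h against 0 h and 1 at 4 h against 1 h, and 5 other translation genes at 1 h against 0 h and 6 at 4 h against 1 h. With library totals without the genes at 0, the calls were 10 higher at 1 h against 0 h, 12 at 8 h against 0 h, 14 at 8 h against 1 h and 18 at 8 h against 4 h, with 2 lower at 1 h against 0 h, 19 at 4 h against 0 h, 22 at 8 h against 1 h and 3 at 8 h against 4 h, and 23 other translation genes at 8 h against 1 h. With RLE factors, the calls were 8 higher at 4 h against 0 h, 13 at 8 h against 0 h and 11 at 8 h against 1 h. With library totals, the calls were 11 higher at 4 h against 0 h, 19 at 8 h against 0 h, 14 at 8 h against 1 h and 18 at 8 h against 4 h, with 3 lower at 4 h against 0 h, 2 at 8 h against 0 h, 22 at 8 h against 1 h and 3 at 8 h against 4 h, and 23 other translation genes at 8 h against 1 h. With libraries thinned to the smallest total, the calls were 3 higher at 4 h against 0 h and 1 at 4 h against 1 h, with 3 lower at 8 h against 4 h. With TMM factors made without the members, the calls were 1 higher at 4 h against 1 h. In batch 1 alone with library totals, the calls were 13 higher at 8 h against 1 h and 28 at 8 h against 4 h, with 27 lower at 8 h against 1 h and 2 at 8 h against 4 h. The share of counts at 0 h was 5.72% without the genes at 0 in batch 2 after hCG.

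With each of the 6 batch 2 follicles after hCG left out in turn, the counts ran from 12 to 28 higher and 1 to 2 lower at 1 h against 0 h, 4 to 13 higher and 2 to 14 lower at 4 h against 0 h, 5 to 17 higher and 2 to 9 lower at 8 h against 0 h, 1 to 3 higher and 45 to 52 lower at 4 h against 1 h, 7 to 11 higher and 37 to 47 lower at 8 h against 1 h and 10 to 12 higher and 3 to 4 lower at 8 h against 4 h. The 11 rises at 8 h against 1 h came without 1 h replicate 11, 1 h replicate 12 or 4 h replicate 11, and the 3 falls at 8 h against 4 h without any of these or 1 h replicate 13. The single rise at 4 h against 1 h came without 1 h replicate 13 or 4 h replicate 13.

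Replicate numbers did not pair the follicles, since the mean correlation of same-numbered libraries lay between -0.05 and 0.06. Few follicles set the batch term in a fit with the replicate number as a block, and its median change at 1 h against 0 h was 0.38. With the replicate number as a block, the calls were 0 higher at 1 h against 0 h, 1 at 4 h against 0 h, 0 at 8 h against 0 h and 1 at 4 h against 1 h, with 0 lower at 1 h against 0 h, 0 at 4 h against 0 h, 0 at 8 h against 0 h and 3 at 8 h against 4 h, and 0 other translation genes at 1 h against 0 h, 5 at 4 h against 0 h and 3 at 8 h against 0 h.

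Of 73 named values that were called, 17 kept their direction and call in every setting run. Of 1689 combinations of value and setting, 1383 kept both, 284 lost the call and 22 turned direction. Against 0 h, TPM with a pseudocount of 1 or 0.1 turned Rpl10 at 4 h to 0.0616 and 0.0617, Rpl22 to 0.19 and 0.19, Rpl36a to 0.0176 and 0.0177 and Rps27 to 0.13 and 0.13. It also turned Rpl5 at 8 h to 0.0368 and 0.0396 and Rps27 at 8 h to 0.14 and 0.14. For 4 h against 1 h, terms for the plates, batch 2 alone and batch 2 alone without the genes at 0 gave 0.18, 0.22 and 0.26 for Rpl7, 0.15, 0.18 and 0.22 for Rplp1 and 0.10, 0.13 and 0.18 for Rps4x. Terms for the plates gave -0.36 for Rplp1 at 8 h against 4 h. The settings that combine batch 1 or 2 alone, library totals or rescaled TPM with another choice were chosen after seeing the data.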
